A study of Sus scrofa with 6 samples.

Results

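The genes described here are 7 targets of the transcription factor p53, namely CDKN1A (which encodes p21), ZMAT3, PHLDA3, BTG2, FAS, SFN and PCNA. They were compared between IPEC-1 and IPEC-J2, a pair of intestinal epithelial lines, both taken from newborn piglets and both immortal without a transgene, by spontaneous outgrowth. Each of the 7 genes was represented by 1 probe set with a single gene symbol, out of 6765 genes and 10069 probe sets with a single symbol. The genes were chosen with their difference between the cell lines on these arrays known. Their values are therefore given as a description, with no p-value for any of them. RNA of untreated cells, grown on membrane inserts, was hybridised to 6 Affymetrix Porcine Genome Arrays, 3 per cell line, with 500 ng of RNA each. The sample labels give 7 days of culture and 1 cell bank number for both lines, and the methods differ on both points. Each line is a single line, so line and donor animal cannot be told apart. Values are signals read as log2, with a floor of 4.00, and a difference of 1 is a 2-fold difference.

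p53 is activated by DNA damage and other stress and switches on genes that stop the cell cycle, repair DNA or lead to cell death. CDKN1A is its best known target in arrest, since p21 blocks the cyclin-dependent kinases and also binds PCNA, the sliding clamp of DNA replication. BTG2 and ZMAT3 restrain growth at the level of mRNA, PHLDA3 restrains the kinase AKT, SFN (14-3-3 sigma) holds cells in G2 and FAS is a death receptor at the cell surface. In the gut, p53 is studied for the arrest and death of crypt cells after damage. p53 itself and its ligase MDM2 were not analysed here.

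All 7 genes had a higher mean signal in IPEC-J2, with differences from 1.37 to 4.15 and a median of 2.45. The median over all 5513 genes with any signal above the floor was -0.05. In 6 of the 7 genes, FAS being the exception, all 3 IPEC-J2 arrays lay above all 3 IPEC-1 arrays, where 16.2% of all 6765 genes did and 22.5% were separate in the opposite direction. The fit over all genes called 4 of the 7 higher at an adjusted p under 0.05 (limma), where it called 9.46% of all genes higher. With the culture note of the labels as a block it called 3, all of these but PHLDA3, where it called 5.38% of all genes higher. Because the genes were chosen on this contrast, nothing is read from these counts. In RNA of whole cultures, fewer cells with a transcript and less transcript per cell cannot be told apart.

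**Figure D1:**
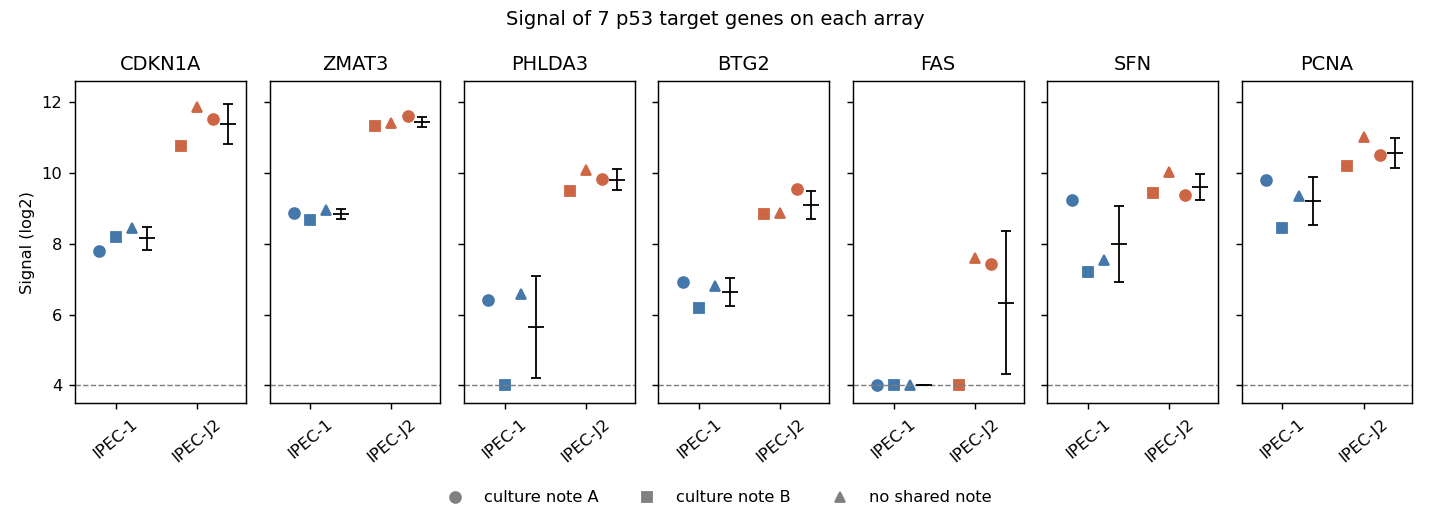
Log2 signal (y axis) of the 7 p53 target genes on each of the 6 arrays, by cell line. Symbols show the culture note in the sample labels, black bars the mean ± SD of 3 arrays and the dashed line the floor of 4.00. CDKN1A, ZMAT3, PHLDA3 and BTG2 are well apart between the lines, SFN and PCNA are closer, and FAS is above the floor on 2 IPEC-J2 arrays.

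CDKN1A had signals of 7.81, 8.20 and 8.45 in IPEC-1 (replicates 1, 2 and 3, the order used throughout) and of 10.76, 11.87 and 11.53 in IPEC-J2. The lowest IPEC-J2 array was 2.31 above the highest IPEC-1 array. The means were 8.15 ± 0.32 (SD, n = 3) in IPEC-1 and 11.39 ± 0.57 (SD, n = 3) in IPEC-J2. They differed by 3.23, or 9.40-fold. CDKN1A was the only one of the 7 genes with its lowest IPEC-1 signal on replicate 1.

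ZMAT3, a zinc finger protein that binds RNA and acts in splicing and mRNA stability, was the most even of the 7 genes. It had signals of 8.86, 8.68 and 8.97 in IPEC-1 and of 11.33, 11.42 and 11.60 in IPEC-J2. The arrays of each line lay close together, with SDs of 0.15 and 0.14, and the gap between the lines was 2.36. The difference of the means was 2.61, or 6.12-fold.

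BTG2, an antiproliferative protein that recruits the CCR4-NOT deadenylase to mRNA, had signals of 6.92, 6.20 and 6.80 in IPEC-1 and of 8.84, 8.88 and 9.55 in IPEC-J2. The groups were separated by 1.92, and the means of 6.64 ± 0.39 (SD, n = 3) and 9.09 ± 0.40 (SD, n = 3) differed 5.46-fold. All IPEC-1 signals lay below 7.85. That level is the 95th percentile of isolated signals in IPEC-1, which appeared on 1 array while the other arrays of the line were at the floor. Against this level BTG2 was 2.36-fold higher.

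PHLDA3, which competes with AKT for lipids of the membrane, had low signals in IPEC-1, 1 of them at the floor. It had 6.41, 4.00 and 6.58 in IPEC-1, against 9.50, 10.10 and 9.84 in IPEC-J2. The gap between the groups was 2.92. The mean difference of 4.15 includes the floor value of IPEC-1 replicate 2, and it was 3.32 without that array. It was above that of CDKN1A over all arrays, and below it within culture note A (3.43 against 3.72) and without the arrays of note B (3.48 against 3.57). The IPEC-1 signals were all below 7.85, and against this level PHLDA3 was at least 3.90-fold higher, in place of 17.8-fold. The 9.40-fold of CDKN1A was the same against the level, so a bound stands beside an estimate and these folds cannot be ranked.

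FAS, the receptor of FAS ligand, was at the floor throughout IPEC-1 and on IPEC-J2 replicate 1, with 7.60 and 7.43 on IPEC-J2 replicates 2 and 3. The groups were not separated, and both signals above the floor lay below 7.85, so no lower bound of the fold is given. The mean difference of 2.34 became 3.52 without IPEC-J2 replicate 1, 1.72 without replicate 2 and 1.80 without replicate 3 of that line.

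SFN, a 14-3-3 protein of epithelial cells, had signals of 9.23, 7.21 and 7.54 in IPEC-1 and of 9.43, 10.02 and 9.37 in IPEC-J2. IPEC-1 replicate 1 came within 0.14 of the lowest IPEC-J2 array, while the other IPEC-1 arrays were clearly lower. The mean difference was 1.61, or 3.06-fold. It was 2.23 without IPEC-1 replicate 1, 1.22 without replicate 2 and 1.39 without replicate 3 of that line.

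PCNA had signals of 9.81, 8.46 and 9.35 in IPEC-1 and of 10.19, 11.03 and 10.50 in IPEC-J2. The groups were separated by 0.38, less than the spread among the arrays of IPEC-1. Its difference of 1.37, or 2.58-fold, was the smallest of the 7.

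A culture note in the labels, here called A, ties IPEC-1 replicate 1 to IPEC-J2 replicate 3, and another, B, ties IPEC-1 replicate 2 to IPEC-J2 replicate 1. The remaining 2 arrays were taken as a pair by elimination. Within note A, the difference was 3.72 for CDKN1A, 2.74 for ZMAT3, 3.43 for PHLDA3 and 2.63 for BTG2. Within note B, it was 2.56, 2.65, 5.50 and 2.64 for the same genes. ZMAT3 and BTG2 thus differed by nearly the same amount in both notes, and CDKN1A by less and PHLDA3 by more in note B. SFN differed by 0.14 in note A and 2.22 in note B, and PCNA by 0.69 and 1.73. FAS differed by 3.43 in note A and was at the floor on both arrays of note B.

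**Figure D2:**
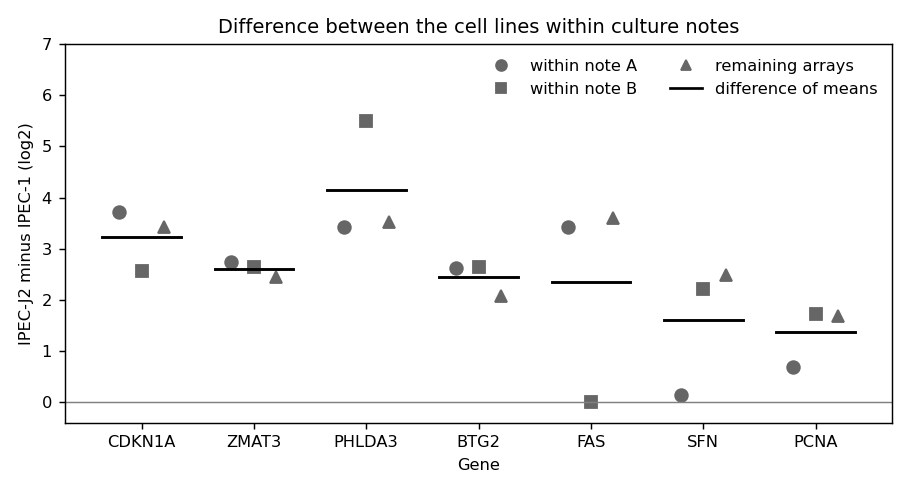
Difference in log2 signal, IPEC-J2 minus IPEC-1 (y axis), of each of the 7 genes within culture note A (circles), within note B (squares) and between the remaining arrays (triangles), with the difference of the means of 3 arrays as a bar. ZMAT3 stays between 2.45 and 2.74, while SFN ranges from 0.14 to 2.48.

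IPEC-J2 replicate 1 was a dimmer array, with a 75th percentile of 8.31 where the other 5 arrays had 8.51 to 8.56. It had the lowest IPEC-J2 signal in 64.1% of the 5244 genes with a signal in that line, and in 6 of the 7 genes, all but SFN. IPEC-1 replicate 2 had the lowest IPEC-1 signal in 34.6% of the 5212 genes with a signal in IPEC-1 and in 5 of the 7, namely ZMAT3, PHLDA3, BTG2, SFN and PCNA. With each array centred on its 75th percentile the differences were 3.29 for CDKN1A, 2.67 for ZMAT3, 4.21 for PHLDA3, 2.51 for BTG2, 2.40 for FAS, 1.67 for SFN and 1.42 for PCNA. Without IPEC-J2 replicate 1 they were 3.55, 2.67, 4.31, 2.58, 3.52, 1.70 and 1.56. FAS was the gene that moved most.

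For each of CDKN1A, ZMAT3, PHLDA3 and BTG2, the 2 genes with the most similar profile were looked up among 5026 genes above the floor on at least 3 arrays. Likeness was the root mean square difference between the log2 signals of the 6 arrays, each gene centred on its own mean. IFNGR1, a chain of the interferon gamma receptor, and PDE6C, a phosphodiesterase, were nearest to CDKN1A, at 0.21 and 0.25. IFNGR1 was at the floor throughout IPEC-1 and reached 7.26 ± 0.40 (SD, n = 3) in IPEC-J2. The integrin subunit ITGB3 and SLA-6, a class I gene of the swine leukocyte antigens, were nearest to ZMAT3, at 0.11 and 0.13. ITGB3 was also nearest to BTG2, together with PROS1, which encodes protein S, both at 0.26. SDCBP2, a syntenin, and PLAU, the urokinase plasminogen activator, were nearest to PHLDA3, at 0.33 and 0.50. IFNGR1, SLA-6 and PROS1 were among the candidates only through their IPEC-J2 signals. In IPEC-1 all 3 were at the floor on every array, so their likeness to a member there rests on a flat floor value, and PDE6C and ITGB3 were the nearest genes with signal in both lines for CDKN1A, and for ZMAT3 and BTG2. SDCBP2 and PLAU shared with PHLDA3 the low signal of IPEC-1 replicate 2, which was 4.00 for SDCBP2 and 5.05 for PLAU.

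Other genes of the p53 pathway were taken from lists of regulators and targets set up by role. Of 30 such genes with a value, 7 were higher (23.3%) and 2 lower (6.67%) in IPEC-J2 at an adjusted p under 0.05 by limma over all genes, where 9.46% of all genes were higher and 11.2% lower. PLK3 and PMAIP1 were at the floor on every array and could not be called. The median difference of the other 28 was 0.20. With the culture note as a block, 5 were higher and 2 lower, against 5.38% and 5.60% of all genes, and 4 of the 7 higher and 1 of the 2 lower genes passed in both fits. The number of higher genes was 4 without IPEC-1 replicate 3 or IPEC-J2 replicate 3 and 3 without IPEC-J2 replicate 2. The number of lower genes was 1 without IPEC-1 replicate 2 or 3.

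**Figure D3:**
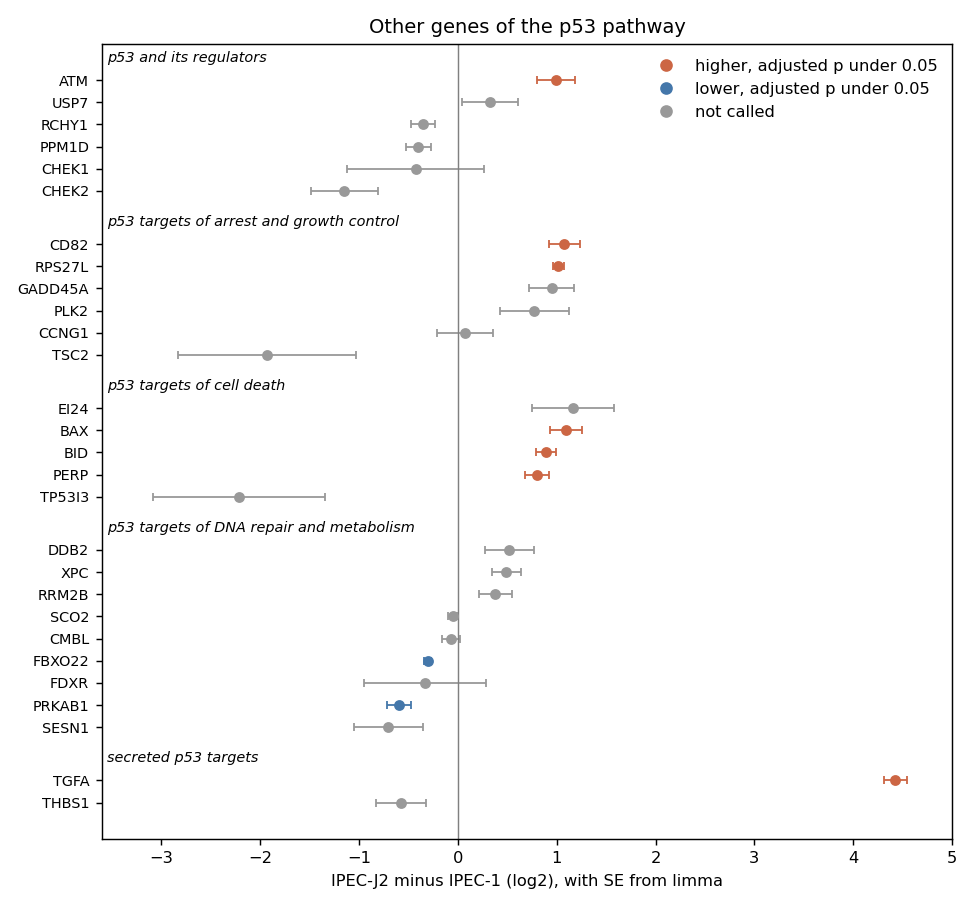
Difference in log2 signal, IPEC-J2 minus IPEC-1 (x axis), of 28 measured genes of the p53 pathway other than the 7 genes above, with its SE from limma (3 arrays per line). Orange genes were called higher and blue genes lower at an adjusted p under 0.05. TGFA lies at 4.42, with its IPEC-1 signals at the floor, and the called genes of arrest and cell death lie between 0.80 and 1.09.

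Of 7 targets of arrest and growth control with a value, 2 rose by limma (28.6%, against 9.46% of all genes) and none fell (11.2% of all genes). None fell either at an unadjusted p under 0.05 by limma or by the methods' t-test with adjustment. RPS27L, a ribosomal protein relative whose gene is induced by p53, had signals of 11.28, 11.20 and 11.14 in IPEC-1 and of 12.17, 12.31 and 12.19 in IPEC-J2. The groups were wide apart for their spread, and the difference was 1.02 (SE 0.0569, adjusted p = 0.00123 from limma, 0.0328 with the culture note as a block). Its probe set is of a type whose probes can match transcripts of more than 1 gene, so signal from the parent RPS27 cannot be told apart. CD82, a tetraspanin that restrains metastasis, was 2.11-fold higher (adjusted p = 0.0155 from limma), and both of its probe sets were higher, by 1.32 and 0.83. Against the level of 7.85 it was 1.15-fold higher. The call of CD82 ended without IPEC-1 replicate 3 or any 1 of the IPEC-J2 arrays (0.0511 to 0.0598). GADD45A, named after its values were seen, had a difference of 0.95 with an adjusted p of 0.0546 from limma.

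Of 6 targets of cell death with a value, 3 rose by limma (against 9.46% of all genes) and none fell (11.2% of all genes). None fell either at an unadjusted p under 0.05 by limma or by the methods' t-test with adjustment. With the block 2 rose, BAX and EI24, of which BAX passed in both fits. BAX, which opens the outer mitochondrial membrane, had signals of 8.16, 8.56 and 8.19 in IPEC-1 and of 9.54, 9.47 and 9.18 in IPEC-J2. All IPEC-J2 arrays were above all IPEC-1 arrays, with a 2.13-fold difference (adjusted p = 0.0156 from limma, 0.0367 with the culture note as a block). BID, which links death receptors to mitochondria, was 1.85-fold higher (adjusted p = 0.00844 from limma, 0.0761 with the block), and its 2 probe sets differed by 0.91 and 0.87. PERP, a desmosomal protein, was 1.74-fold higher (adjusted p = 0.0154 from limma, 0.0575 with the block). The call of BAX ended without IPEC-1 replicate 1, IPEC-1 replicate 3 or IPEC-J2 replicate 2 (0.0539 to 0.0599), and that of PERP without IPEC-J2 replicate 2 (0.0579) or 3 (0.0674). EI24, named after its values were seen, differed by 1.17 and passed only with the block (adjusted p = 0.136 from limma and 0.0463). TP53I3, also named after its values were seen, had the largest difference of this list, -2.21, without passing (adjusted p = 0.172 from limma, 0.250 with the block). All its IPEC-J2 signals lay below those of IPEC-1, and 1 of them was at the floor.

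Of 9 targets of DNA repair and metabolism with a value, 2 fell by limma (22.2%, against 11.2% of all genes) and none rose (9.46% of all genes), with 1 higher at an unadjusted p under 0.05 and none by the methods' t-test with adjustment. FBXO22, part of a ubiquitin ligase, had signals of 9.65, 9.63 and 9.56 in IPEC-1 and of 9.30, 9.26 and 9.36 in IPEC-J2, which is 1.24-fold lower (limma, adjusted p = 0.0100, and 0.0189 with the block). With each array centred on its 75th percentile its adjusted p from limma was 0.143. PRKAB1, a subunit of the energy sensor AMPK, was 1.51-fold lower (limma, adjusted p = 0.0342, and 0.0548 with the block), and its call ended when any 1 array other than IPEC-1 replicate 1 and IPEC-J2 replicate 2 was left out (0.0983 to 0.116). XPC, which finds damaged bases and was named after its values were seen, differed by 0.49 without passing (adjusted p = 0.0944 from limma). SESN1, also named after its values were seen, differed by -0.70 without passing (adjusted p = 0.257 from limma).

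Among 2 secreted targets with a value, TGFA rose by limma (9.46% of all genes did) and none fell (11.2% of all genes). TGFA, a ligand of the EGF receptor, was at the floor throughout IPEC-1 and had 8.20, 8.46 and 8.61 in IPEC-J2. Against the level of 7.85 this is at least 1.49-fold higher. The difference from the floor was 4.42 (adjusted p = 0.000131 from limma, 0.0137 with the block). These p-values belong to that difference, in which the floor leaves IPEC-1 without spread, and the fold against the level was not tested. Among 6 regulators of p53 with a value, 1 rose by limma (16.7%, against 9.46% of all genes) and none fell (11.2% of all genes). At an unadjusted p under 0.05 by limma 3 were lower, and none by the methods' t-test with adjustment. With the block none rose and 1 fell, against 5.38% and 5.60% of all genes. ATM, the kinase that signals DNA breaks to p53, had signals of 8.09, 7.56 and 8.06 in IPEC-1 and of 8.77, 8.81 and 9.11 in IPEC-J2, 1.99-fold higher (adjusted p = 0.0309 from limma, 0.0589 with the block). Its call ended when any 1 array other than IPEC-1 replicate 2 was left out (0.0647 to 0.0987). CHEK2, the kinase that acts between ATM and p53, was named after its values were seen. It differed by -1.15 and passed only with the block (adjusted p = 0.0870 from limma and 0.0289).

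Proteins that act with the 7 genes or are related to them were described in the same way. Of 55 such genes with a value, 6 were higher (10.9%) and 5 lower (9.09%), close to the 9.46% and 11.2% of all genes, and the median difference of the 52 measured ones was -0.005. With the culture note as a block, 4 were higher and 1 lower, against 5.38% and 5.60% of all genes. The number of higher genes was 3 when any 1 IPEC-1 array or IPEC-J2 replicate 2 was left out and 2 without IPEC-J2 replicate 3. The number of lower genes was 1 without IPEC-1 replicate 1 or IPEC-J2 replicate 3, 2 without IPEC-1 replicate 2 or IPEC-J2 replicate 1 and 3 without IPEC-J2 replicate 2.

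The adapter that binds activated FAS and the protease that this adapter recruits were called higher in IPEC-J2, but the protease did not pass with the block. FADD, the adapter, had mean signals of 6.63 ± 0.03 (SD, n = 3) in IPEC-1 and 8.82 ± 0.26 (SD, n = 3) in IPEC-J2, 4.57-fold higher (adjusted p = 0.00194 from limma, 0.0311 with the block). Its probe sets differed in size, with 0.65 for the brighter one and 3.74 for one at the floor throughout IPEC-1. Against the level of 7.85, FADD was 1.25-fold higher. CASP8, the protease that FADD recruits, had signals of 7.47, 7.44 and 7.62 in IPEC-1 and of 8.36, 8.92 and 8.42 in IPEC-J2, 2.08-fold higher (adjusted p = 0.0214 from limma, 0.0507 with the block), or 1.64-fold against that level. DAXX, a FAS-binding protein that is mainly nuclear, was 1.56-fold lower (limma, adjusted p = 0.0294, and 0.0953 with the block). The calls of CASP8 and DAXX ended without any 1 IPEC-1 array or without IPEC-J2 replicate 3, and that of DAXX also without IPEC-J2 replicate 1 (0.0632 to 0.0739 and 0.0765 to 0.101). FASLG, the ligand of FAS, was at the floor on every array. Of 8 genes of this list with a value, 2 were higher and 1 lower (9.46% and 11.2% of all genes), and with the block 1 was higher and none lower, with 3 lower at an unadjusted p under 0.05 by limma without it.

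Of 3 relatives of BTG2 and PHLDA3 with a value, 2 were called higher (9.46% of all genes) and 1 with the block. BTG1, the closest relative of BTG2, did not pass, with a difference of 0.27 (adjusted p = 0.346 from limma) and overlapping groups. PHLDA2, a pleckstrin homology protein known as an imprinted gene, was 2.42-fold higher (adjusted p = 0.0188 from limma, 0.0346 with the block). TOB1, of the same antiproliferative family as BTG2, was 2.38-fold higher (adjusted p = 0.0258 from limma, 0.101 with the block). The call of PHLDA2 ended without IPEC-1 replicate 1, IPEC-J2 replicate 2 or IPEC-J2 replicate 3 (0.0537 to 0.0715), and that of TOB1 when any 1 array other than IPEC-J2 replicate 1 was left out (0.0756 to 0.0877). Among 5 relatives of SFN in the 14-3-3 family, YWHAE was 1.28-fold lower (limma, adjusted p = 0.0101, and 0.0809 with the block or 0.0740 with arrays centred on the 75th percentile). None of these was higher, also at an unadjusted p under 0.05 by limma or by the methods' t-test with adjustment. Over all genes 9.46% were higher and 11.2% lower, so the absence of higher genes among 5 is not read as a result.

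CDKN1B, which encodes p27, the relative of p21 among the inhibitors of cyclin-dependent kinases, was lower in IPEC-J2. Its mean signal was 7.43 ± 0.25 (SD, n = 3) in IPEC-1 and 6.75 ± 0.09 (SD, n = 3) in IPEC-J2, which is 1.61-fold lower (limma, adjusted p = 0.0406, and 0.0814 with the block), or 1.26-fold against the levels. Its 3 probe sets differed by -0.44, -0.62 and -0.997, and the -0.62 came from a single array, IPEC-1 replicate 3, the other 5 being at the floor. The call ended when any 1 array other than IPEC-1 replicate 3 was left out (0.0717 to 0.124). No cyclin or kinase that p21 inhibits was called among 5 with a value (CDK2, CCND2, CCNA2, CCNB1 and CCNB2, with adjusted p between 0.172 and 1 from limma). None had an unadjusted p under 0.05 by limma or passed the methods' t-test with adjustment. With 9.46% of all genes higher and 11.2% lower, the absence of calls among 5 genes is not read as a result. With the block, CDK2 passed as lower (adjusted p = 0.0311 from limma), with a difference of -0.14.

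Of 16 partners of PCNA in DNA replication with a value, 1 rose (6.25%) and 2 fell (12.5%), near the 9.46% and 11.2% of all genes. With the block 2 rose and none fell, where 5 were lower by limma at an unadjusted p under 0.05 without it. POLD4, the smallest subunit of DNA polymerase delta, had signals of 9.45, 9.40 and 9.68 in IPEC-1 and of 10.50, 10.65 and 10.69 in IPEC-J2, 2.15-fold higher (adjusted p = 0.00455 from limma, 0.0301 with the block). RFC1, the large subunit of the clamp loader, was 1.55-fold lower (limma, adjusted p = 0.0363, and 0.0646 with the block), and LIG1, the ligase that joins Okazaki fragments on PCNA, was 1.52-fold lower (limma, adjusted p = 0.0417, and 0.162 with the block). Against the level of 7.78 for IPEC-J2, RFC1 was 1.03-fold lower. The call of RFC1 ended when any 1 array other than IPEC-J2 replicate 1 was left out (0.0570 to 0.112), and that of LIG1 when any 1 array other than IPEC-1 replicate 3 was left out (0.0827 to 0.139).

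Genes of proliferation that p53 is known to repress through p21 were listed as well. Of 13 with a value, 1 was higher by limma (7.69%, against 9.46% of all genes) and none lower (11.2% of all genes). None was lower either at an unadjusted p under 0.05 by limma or by the methods' t-test with adjustment. The median difference of the 13 genes was 0.37. TYMS, thymidylate synthase, was the called gene, 2.31-fold higher (adjusted p = 0.0349 from limma, 0.0862 with the block). The call came from 1 of its 2 probe sets, with signals of 8.59, 6.84 and 7.62 in IPEC-1 and of 9.92, 10.24 and 10.13 in IPEC-J2, while the other was at the floor on every array. It ended when any 1 array other than IPEC-1 replicate 1 was left out (0.0526 to 0.119).

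These proliferation genes differed widely among the cultures of each line. Their mean signal was 7.52, 5.58 and 6.22 in IPEC-1, against 6.07, 7.43 and 6.97 in IPEC-J2. IPEC-1 replicate 1 had the highest IPEC-1 signal in 11 of the 13 genes and IPEC-1 replicate 2 the lowest in 8, and IPEC-J2 replicate 2 had the highest IPEC-J2 signal in 11. IPEC-J2 replicate 1, the dimmer array with the lowest signal in 64.1% of the genes with a signal in IPEC-J2, was lowest in 10. PCNA had the same order of arrays within each line. CDKN1A had the order of IPEC-J2 but not that of IPEC-1, where replicate 1 was its lowest array. The part of array brightness in the shared order of IPEC-J2, and of these differences among cultures in the higher PCNA signal, was not tested.

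**Figure D4:**
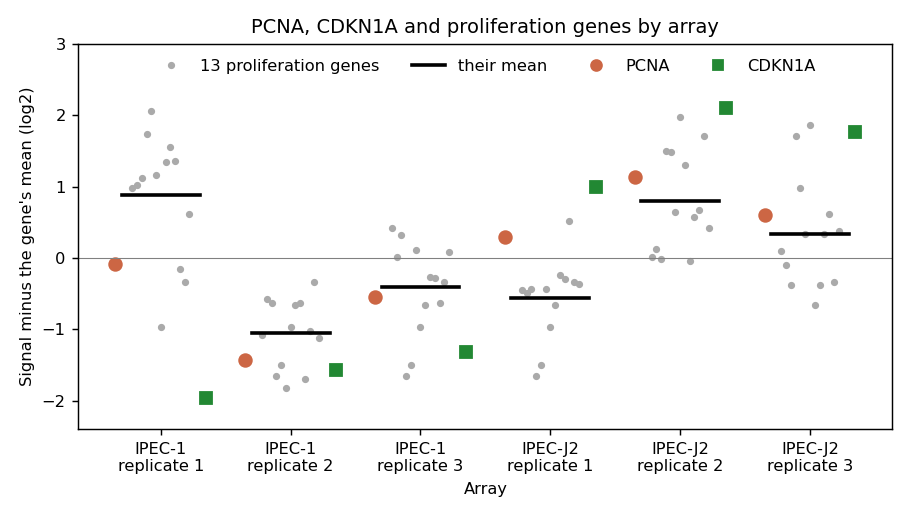
Log2 signal minus the mean of each gene over the 6 arrays (y axis) on each array (x axis), for 13 proliferation genes (grey points, black bar for their mean), PCNA (orange circles) and CDKN1A (green squares). IPEC-1 replicate 1 is high in the proliferation genes and lowest in CDKN1A, and PCNA lies above the mean of the proliferation genes on all 3 IPEC-J2 arrays.

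Of 10 epithelial markers with a value, 9 had signals in both lines. By limma 4 were called higher in IPEC-J2 and 1 lower, where 9.46% of all genes were higher and 11.2% lower. With the culture note as a block 2 were higher and 2 lower, against 5.38% and 5.60% of all genes. VIL1 and the claudin CLDN7 were called higher without the block and did not pass with it (adjusted p = 0.101 and 0.0576 from limma). EPCAM lay between 13.34 and 13.60 on all arrays, and the keratins KRT8, KRT18 and KRT19 between 12.24 and 13.17. KRT19 was the marker called lower, by limma with an adjusted p of 0.00223. CLDN3, a claudin of tight junctions, was at the floor throughout IPEC-1 and between 6.01 and 6.24 in IPEC-J2, whereas OCLN, another tight junction gene, had a difference of -0.90 (adjusted p = 0.120 from limma, 0.0470 with the block). The brush border gene VIL1 was between 13.81 and 14.04 in IPEC-J2, and 8.45, 4.00 and 8.53 in IPEC-1. Of 21 markers of fibroblasts, leukocytes, endothelium, enteroendocrine and smooth muscle cells with a value, 14 were at the floor on every array, among them DCN, PTPRC, CDH5, VWF, CHGA and DES. VIM, which cultured epithelial cells can also express, lay between 12.17 and 13.35 in IPEC-1 and between 10.95 and 11.85 in IPEC-J2. The fibroblast marker COL1A2 lay between 5.85 and 5.98 on all arrays. PDGFRB, another, reached 5.68 in IPEC-1 and 5.09 in IPEC-J2, with 1 IPEC-J2 array at the floor. The leukocyte marker CD8A had 5.79 on IPEC-1 replicate 2 and 5.60 on IPEC-J2 replicate 1, and CD14 had 4.735 on IPEC-J2 replicate 3. Both were at the floor elsewhere. CD3E and PECAM1 were called lower in IPEC-J2 at signals below 7.85 in both lines (adjusted p = 0.00346 and 0.0307 from limma), and with the block CD3E passed (0.0365) and PECAM1 did not (0.102).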

How the data were processed

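Gene expression of IPEC-1 and IPEC-J2 was measured on 6 Affymetrix Porcine Genome Arrays, 3 cultures per line. Line and replicate number come from the sample titles. The authors deposited 1 table of log2 signals for 24123 probe sets. The submitters' processing notes name GCOS 1.1.1 and PLIER, and the methods name global scaling to a fixed target signal in another GCOS version, a background correction and a normalization. Whether the deposited values carry that scaling, and the base of their logarithm, is not given in the sources used here, and log2 was inferred from the floor of 4.00, the log2 of 16. The floor held between 40.5 and 48.3% of probe sets per array, and signals at the floor carry no order. Fold changes understate differences near the floor. The number of arrays limits the precision.

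Control probe sets (124) were left out. Symbols came from the platform annotation. Of the others, 10069 probe sets had 1 symbol, 198 several and 13732 were unnamed here. The gene identifiers of all 7 probe sets matched the same symbols in the RefSeq gene table. Averaging the probe sets of a symbol, which the methods also did, left 6765 genes. Their line difference was fitted in R 4.3.3 with limma 3.58.1, a step tested on simulated data, and p-values were adjusted by Benjamini-Hochberg across the whole table and called under 0.05. They reflect the spread between these cultures alone, and an exact permutation test of 3 against 3 arrays cannot give a p under 0.1. The 3 pairs by culture note deviated together (correlations of 0.19, 0.40 and 0.26 over 4330 genes), the last pair being the remaining arrays. Deviations were taken from the mean of each line, so these correlations are not independent of each other. The part of array brightness in them was not tested. The block by culture note leaves 2 residual degrees of freedom in place of 4. Folds against a level raise the mean of each probe set to the 95th percentile of isolated signals, 7.85 for IPEC-1 and 7.78 for IPEC-J2.

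The members, lists and levels were chosen with earlier results of these data known. Named were all members, per list up to 4 called genes in each direction with the largest differences, and for 4 members the 2 genes of most similar profile. MDM2 and some other genes of the lists were not analysed here, and a gene outside this rule is marked in the text where it is named. Alternatives are given in the closing section. No sequence was used.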

Additional observations from a re-analysis of the deposited data

How the results depend on the processing

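The median difference of the 7 genes lay between 2.22 and 2.74 under 14 alternatives, and between 2.22 and 2.67 with 1 array left out. It stayed positive, as did the difference of every one of the 7 genes except FAS, which was 0 within culture note B. Over all genes 640 were higher and 761 lower. With the culture note as a block they were 364 and 379, with the replicate block 272 and 324, without the arrays of culture note A 149 and 168, and without those of note B 397 were lower. By the methods' t-test without adjustment, 1154 were lower. With 1 array left out, 355 to 613 were higher and 417 to 572 lower, the fewest of both without IPEC-J2 replicate 3 (355 and 417), with 390 higher without IPEC-J2 replicate 2 and 494 lower without IPEC-1 replicate 3.

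Of the other p53 pathway genes, 7 were higher and 2 lower. The replicate block gave 3 and 0, and leaving out the arrays of note A gave 3 and 1. Without note B, 4 were higher. Quantile normalization and the methods' t-test without adjustment gave 4 lower, and the t-test with adjustment 1. With 1 array left out, 3 to 7 were higher and 1 to 3 lower. Of the partners, relatives and proliferation genes, 6 were higher and 5 lower. The culture note as a block gave 1 lower, the replicate block 2 higher and 0 lower, leaving out note A 0 and 0, and leaving out note B 1 lower. Quantile normalization gave 8 lower, and the t-test 2 lower with adjustment and 9 without. With 1 array left out, 2 to 6 were higher and 1 to 4 lower. Of the 20 called genes named above from the lists other than the cell type markers, RPS27L and TGFA passed under all 19 alternatives. The called markers were not followed through all of these alternatives. Same-numbered arrays did not deviate together from the means of their lines, with correlations of -0.19, -0.29 and 0.05. The replicate block also leaves 2 residual degrees of freedom in place of 4. The causes of these changes were not tested. At an unadjusted p under 0.05 (limma), the counts of 0 were 4 lower pathway genes and 8 lower partner genes with the replicate block, and 6 higher and 4 lower partner genes without note A. Without an array or a note, fewer arrays are compared.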
